A study of Mus musculus with 12 samples.

Results

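The genes described here encode 2-oxoglutarate dioxygenases other than the TET proteins. They are 34 genes, found by matching their mouse Ensembl identifiers, under current or older symbols, to the rows of both gene tables of the study. All 34 were found, of 36521 rows in each table. A row of their own was present for 30, and these are the genes counted below. The other 4 (Jmjd1c, Alkbh1, Alkbh6 and Plod3) sit in rows that join overlapping genes, so that their reads cannot be told from those of their neighbours. The 30 fall into 14 histone demethylases and related JmjC proteins, 7 ALKBH and FTO enzymes, 4 hydroxylases of hypoxia-inducible factors (HIF), 3 collagen prolyl hydroxylases and 2 lysyl hydroxylases.

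These enzymes share a chemistry with TET1, TET2 and TET3. Each uses ferrous iron, oxygen and 2-oxoglutarate to oxidise its substrate and gives off succinate and carbon dioxide. TET proteins oxidise 5-methylcytosine in DNA, whereas the relatives described here act on methylated histone tails, on alkylated or methylated bases in DNA and RNA, on HIF alpha subunits, and on procollagen. In embryonic stem cells, several of the histone demethylases are known to help maintain the undifferentiated state.

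RNA was sequenced from V6.5 mouse embryonic stem cells in 3 groups of 4 samples, which the labels call biological replicates. Tet1kd cells stably expressed a Tet1 hairpin from the plasmid pSUPER-puro, and Tet2kd cells a Tet2 hairpin from the same kind of plasmid. Parental V6.5 cells had no knockdown. Knockdown cells had been electroporated, selected in puromycin on SNL76/7-4 feeder cells and picked as individual clones, whereas no cells with a control hairpin or an empty plasmid were used here. The sources used here do not give the number of clones behind the 4 samples of a group, so the hairpin, the selection and the choice of clone cannot be told apart, and p-values measure the spread between these samples alone. All groups grew with serum and LIF.

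The authors deposited group means of normalized counts. The reads of single libraries were recovered from those means for most genes, and a library is named here by a letter, with a and b the deeper and c and d the shallower pair of its group, since no source ties it to a replicate number. Estimated depth was 15.8 to 39.7 M reads in Tet1kd, 14.4 to 31.1 M reads in Tet2kd and 14.6 to 31.6 M reads in parental libraries. Normalized counts below are all on the scale of the Tet1kd table. In the authors' deposited table, Tet1 stood at 25.2% of its parental level in Tet1kd cells, and Tet2 at 50.9% in Tet2kd cells. Both comparisons use the same parental libraries. Of 11 embryonic stem cell markers, all were expressed; 5 were higher and 2 lower in Tet1kd cells, and 2 were higher and 0 lower in Tet2kd cells.

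The level of expression differed widely between the members. Per kilobase of merged exons, parental cells had the highest normalized counts for Kdm5b (883 per kb), a demethylase of histone H3 lysine 4, followed by Alkbh5 (808.5 per kb), an eraser of N6-methyladenosine in RNA, and by Kdm3a (806 per kb), a demethylase of H3 lysine 9. The lowest levels were those of Kdm4d (2.04 per kb) and of the collagen prolyl hydroxylase gene P4ha3 (12.0 per kb). In Tet1kd cells Kdm3a had 253 normalized counts per kb.

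**Figure D1:**
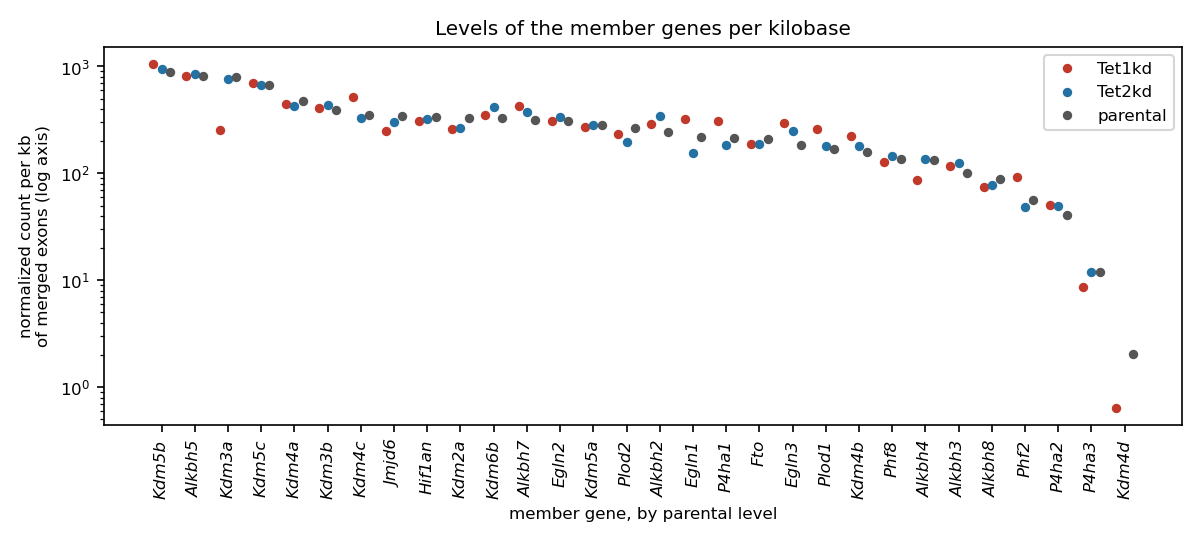
Normalized count per kilobase of merged exons (log axis) of the 30 member genes, ordered by parental level; points are group means for Tet1kd, Tet2kd and parental cells. Kdm5b stands highest in parental cells at 883 per kb and Kdm4d lowest at 2.04 per kb; Kdm4d has no Tet2kd point because its mean there was 0.

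Against parental cells, 13 of the 30 members (43.3%) passed an adjusted p of 0.05 in Tet1kd cells, 9 higher and 4 lower, in the authors' deposited table (DESeq). Across all genes tested, 30.4% passed, 15.2% higher and 15.3% lower. Among genes with a mean normalized count of at least 100, 46.4% of the members passed, against 49.6% of all such genes, so the members were called about as often as other genes of their level. The median log2 change (log2 of the ratio of the group means) was 0.04 over the members and -0.02 over all genes tested. In Tet2kd cells 6 of the 30 members (20%) passed, 2 higher and 4 lower, in the authors' deposited table. Across all genes 7.14% passed, 3.85% higher and 3.29% lower, and among genes with a mean of at least 100 the shares were 17.9% of the members and 12.7% of all such genes. The median log2 change was 0.02 over the members and 0.00 over all genes. Except where another test is named, "passed" and "called" below refer to the first of the 2 tests in the authors' deposited table (DESeq).

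The counts depend on the test. In Tet1kd cells the second deposited test called 18 of 30 members, against 39.2% of all genes. There limma called 18 of the 28 members it fitted, against 54.9% of the genes fitted. In Tet2kd cells the second deposited test called 16 of 30 members, against 18.2% of all genes. There limma called 10 of the 26 members it fitted, against 19.5%. Called by both of these and not by the first test were Alkbh8, Fto, Hif1an, P4ha2 and Plod2 in Tet1kd cells, and Jmjd6, Alkbh2, Alkbh3, Fto and P4ha1 in Tet2kd cells. The second deposited test alone added Kdm3b, Kdm4a, Kdm4b, Kdm5b and Alkbh7 in Tet2kd cells, of which Kdm3b and Kdm5b could not be fitted with limma, and limma alone added Alkbh3 in Tet1kd cells. With a term for the deeper and shallower libraries, limma called 24 of 28 in Tet1kd and 16 of 26 in Tet2kd cells. The shares of the genes fitted were 64.6% and 35.2%.

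**Figure D2:**
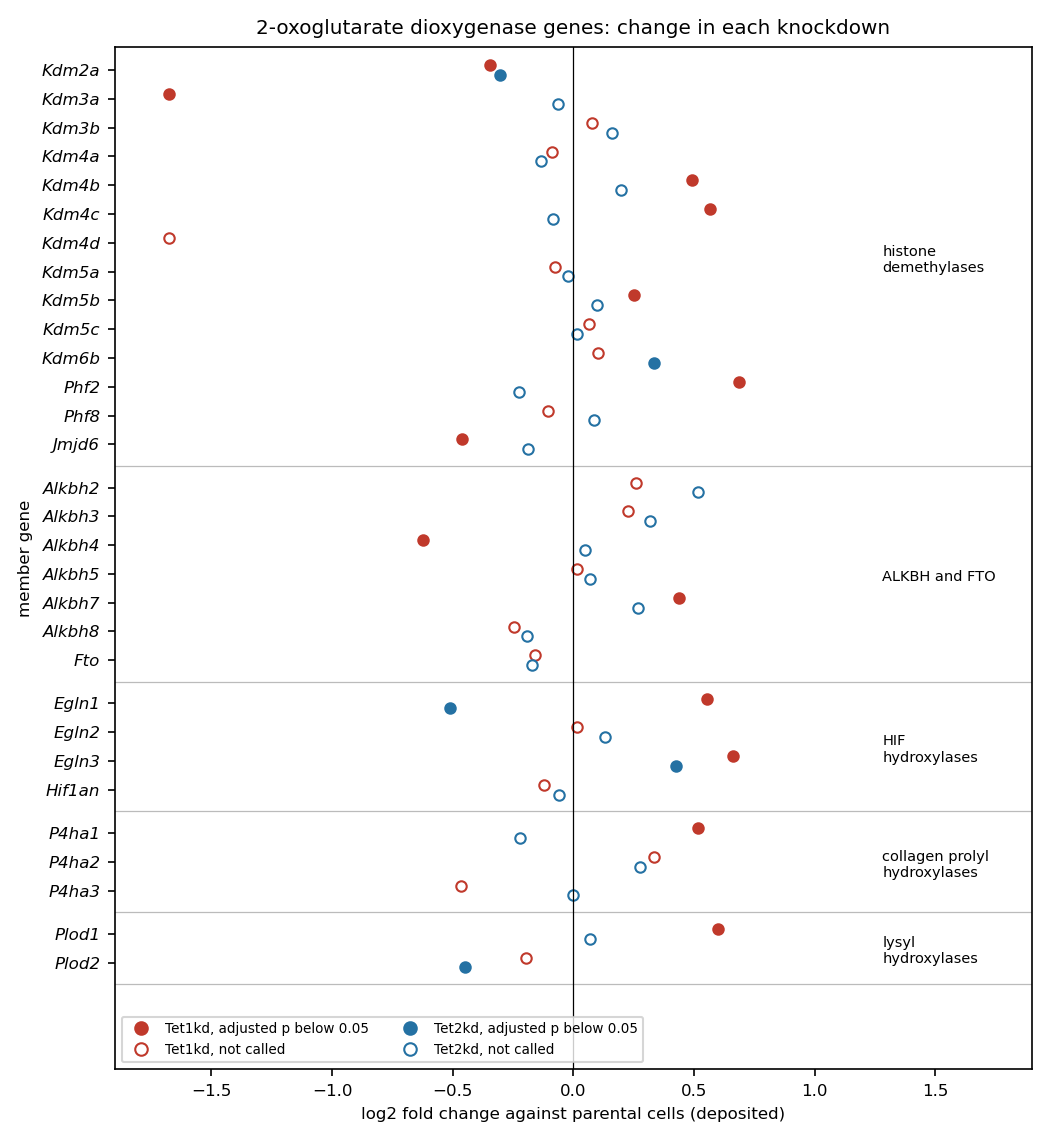
Deposited log2 change against parental cells of the 30 members, by family, for Tet1kd and Tet2kd cells; filled points passed an adjusted p of 0.05. Among called members Kdm3a fell furthest in Tet1kd cells (-1.67), Egln1 has filled points on both sides of 0, and Kdm4d has no Tet2kd point because its mean there was 0.

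The HIF hydroxylases set the stability and activity of the hypoxia-inducible factors. EGLN1, EGLN2 and EGLN3 hydroxylate prolines of HIF alpha subunits, which marks them for degradation through VHL, and HIF1AN hydroxylates an asparagine, which blocks their coactivators. Egln1 and Egln3 are themselves known to be induced by HIF. Egln1 was higher in Tet1kd cells and lower in Tet2kd cells. Its normalized counts were 1132, 1142, 1186 and 1189 in the Tet1kd libraries a to d. They were 563, 544, 541 and 571 in the Tet2kd libraries, and 737, 761, 832 and 837 in the parental libraries. All Tet1kd libraries stood above all parental libraries, and all Tet2kd libraries below them. The log2 change was 0.55 in Tet1kd cells (adjusted p = 8.06e-08) and -0.51 in Tet2kd cells (adjusted p = 0.000166), in the authors' deposited table. Set directly against each other, Tet1kd cells exceeded Tet2kd cells by a log2 difference of 1.07 (SE 0.06; limma, adjusted p = 1.34e-09).

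Egln3 was higher in both knockdowns. It had 784, 860, 761.5 and 716 normalized counts in Tet1kd libraries, 726, 696, 580 and 644 in Tet2kd libraries, and 516.5, 534, 428 and 494 in parental libraries. The libraries of neither knockdown overlapped those of parental cells, but those of the knockdowns overlapped each other. The log2 change was 0.66 in Tet1kd cells (adjusted p = 1.74e-08) and 0.42 in Tet2kd cells (adjusted p = 0.00204), in the authors' deposited table. The log2 difference of 0.24 between Tet1kd and Tet2kd cells (limma, adjusted p = 0.0363) lost its call when any 1 of Tet1kd libraries a, b or c, or of Tet2kd libraries c or d, was left out, with adjusted p of 0.0532 to 0.122.

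The other two HIF hydroxylase genes did not pass in either knockdown by the first deposited test. Egln2 averaged 866 ± 184 normalized counts in Tet1kd, 938 ± 128 in Tet2kd and 857 ± 139 in parental cells (SD, n = 4 each). In each group both shallower libraries had more than both deeper ones. In Tet1kd cells libraries c and d had 926 and 1100, and libraries a and b 699.6 and 740.3 normalized counts. Differences by depth were not particular to Egln2. Over recovered genes with a mean of at least 100, same-depth libraries of different groups correlated in their deviations from the group mean (0.364 to 0.579). Libraries of unlike depth had correlations of -0.528 to -0.359. Hif1an averaged 2034 ± 46 in Tet1kd, 2124 ± 45 in Tet2kd and 2211 ± 87 in parental cells (SD, n = 4 each). All Tet1kd libraries of Hif1an lay below all parental ones, by a narrow gap of 2102 to 2115 normalized counts, and in Tet1kd cells it passed by the second deposited test (adjusted p = 0.0356) and by limma (adjusted p = 0.0383).

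The promoters of the 3 Egln genes are shown because Egln1 moved in opposite directions in the knockdowns and Egln3 in 1 direction, while Egln2 was called in neither; those of the collagen hydroxylase genes P4ha1 and Plod1, described below, are set beside them because both were higher in Tet1kd cells. Each runs from 250 bases before to 50 bases after the annotated start, 5′ to 3′ on the gene's strand, from RefSeq on build GRCm38.p6. Capitals mark ACGTG and its reverse complement CACGT, the core letters of many known HIF binding sites. No other letters were searched, so a promoter without a match may still hold a HIF site. Egln1 lies at chr8:124949205-124949504 on the minus strand, Egln2 at chr7:27166753-27167052 on the minus strand, Egln3 at chr12:54203825-54204124 on the minus strand, P4ha1 at chr10:59323046-59323345 on the plus strand and Plod1 at chr4:147936727-147937026 on the minus strand.
Egln1: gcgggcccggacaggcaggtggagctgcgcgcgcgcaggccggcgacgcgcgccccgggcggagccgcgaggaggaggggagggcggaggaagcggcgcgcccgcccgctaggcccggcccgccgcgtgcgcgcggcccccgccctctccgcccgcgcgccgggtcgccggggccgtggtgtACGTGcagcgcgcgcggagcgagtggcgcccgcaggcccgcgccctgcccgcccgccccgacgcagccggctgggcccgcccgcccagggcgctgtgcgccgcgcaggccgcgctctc
Egln2: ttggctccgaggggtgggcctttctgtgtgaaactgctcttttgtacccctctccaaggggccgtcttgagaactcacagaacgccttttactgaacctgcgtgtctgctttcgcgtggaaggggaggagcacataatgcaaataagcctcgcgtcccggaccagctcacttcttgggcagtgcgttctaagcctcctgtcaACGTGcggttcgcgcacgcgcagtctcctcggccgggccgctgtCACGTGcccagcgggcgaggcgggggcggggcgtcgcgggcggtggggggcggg
Egln3: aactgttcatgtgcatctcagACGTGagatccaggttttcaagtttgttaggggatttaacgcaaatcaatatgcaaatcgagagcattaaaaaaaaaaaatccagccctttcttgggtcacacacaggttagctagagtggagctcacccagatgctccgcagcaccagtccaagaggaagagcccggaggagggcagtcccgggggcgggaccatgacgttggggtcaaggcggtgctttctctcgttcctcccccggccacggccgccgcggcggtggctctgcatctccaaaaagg
P4ha1: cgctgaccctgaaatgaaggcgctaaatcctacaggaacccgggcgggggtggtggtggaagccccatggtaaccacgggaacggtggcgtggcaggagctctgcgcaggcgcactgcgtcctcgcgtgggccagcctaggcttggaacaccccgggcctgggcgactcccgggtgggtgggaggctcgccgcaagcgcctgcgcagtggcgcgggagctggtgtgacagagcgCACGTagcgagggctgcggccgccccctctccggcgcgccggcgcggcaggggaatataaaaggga
Plod1: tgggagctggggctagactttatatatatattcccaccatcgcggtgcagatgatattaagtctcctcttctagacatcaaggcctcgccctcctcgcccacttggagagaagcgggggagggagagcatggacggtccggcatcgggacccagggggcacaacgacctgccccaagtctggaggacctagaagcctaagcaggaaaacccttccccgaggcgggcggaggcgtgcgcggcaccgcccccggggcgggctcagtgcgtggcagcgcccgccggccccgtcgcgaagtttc

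Matches to the motif, on either strand, numbered 1 for Egln1, 3 for Egln2, 1 for Egln3, 1 for P4ha1 and 0 for Plod1; the 3 matches of Egln2 include CACGTG, in which both orientations overlap. A second annotated promoter of Egln2, not shown, held 0. The promoters of Kdm3a and Phf2, whose levels also moved in Tet1kd cells, held 0 matches as well. Other members called in Tet1kd cells did hold the motif, counted in the annotated promoter with the most matches. Kdm4c held 4, Alkbh7 2, and Jmjd6, Alkbh4 and Kdm5b 1 each. P4ha2 held 2 and Phf8 1, although neither was called in Tet1kd cells. For Kdm2a and Kdm4b, which were called in Tet1kd cells, no promoter was available to count. Of the 30 members with a row of their own, 24 had a promoter in the RefSeq table, and 11 of these (45.8%) held the motif in at least 1 annotated promoter, against 21.8% of all genes. Of single promoters of this length, 19.6% held it, and 28% of those with at least 10 CpG. Egln2, with the most matches among the HIF hydroxylases, was called in neither knockdown. The motif was chosen after the values were seen, and a match is only a description of letters.

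Around the HIF hydroxylases, the HIF pathway genes were called in Tet1kd cells in both directions, as were all genes tested (15.2% higher, 15.3% lower). For this and the later gene lists, the shares to compare are 30.4% of all genes called in Tet1kd and 7.14% in Tet2kd cells. Among genes with a mean of at least 100 they were 49.6% and 12.7%. Of 13 tested genes of the HIF pathway core, 2 were higher and 5 lower in Tet1kd cells (median log2 change -0.19), and 0 were called in Tet2kd cells by DESeq, with a median of -0.03. At an unadjusted p of 0.05, 2 of the 13 passed in Tet2kd cells, and 2 passed by the second deposited test and 2 by limma. The HIF2 alpha subunit gene Epas1 rose in Tet1kd cells by a log2 change of 0.49 (adjusted p = 2.59e-07) and the HIF beta subunit gene Arnt by 0.40 (adjusted p = 3.52e-05), in the authors' deposited table. Hif3a, which encodes a further alpha subunit, fell by 0.81 on the log2 scale (adjusted p = 1.51e-10) in the authors' deposited table. Of 29 tested HIF target genes, 11 were higher and 7 lower in Tet1kd cells, with a median of 0.08. The growth factor gene Vegfa (1.29) and the glycolysis gene Aldoc (1.02) rose, whereas the hexokinase gene Hk2 (-1.22) fell, by log2 change in the authors' deposited table. In Tet2kd cells 0 HIF targets were higher and 3 lower, with a median of -0.02. The 3 were the glucose transporter gene Slc2a1 (-0.28), Ndrg1 (-0.36) and the lactate transporter gene Slc16a3 (-0.31), by log2 change in the authors' deposited table.

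The collagen hydroxylases act in the endoplasmic reticulum. P4HA1, P4HA2 and P4HA3 are catalytic subunits of the prolyl 4-hydroxylase that stabilises the collagen triple helix, and the PLOD enzymes hydroxylate lysines that are later glycosylated or crosslinked. P4ha1 and Plod1 were higher in Tet1kd cells, and Plod2 was lower in Tet2kd cells. P4ha1 had 1207, 1229, 1292 and 1331 normalized counts in Tet1kd libraries, 815, 744, 695 and 784 in Tet2kd libraries, and 854, 919, 935 and 832 in parental libraries. All Tet1kd libraries exceeded all others, and all Tet2kd libraries lay below all parental ones. The log2 change of P4ha1 was 0.52 in Tet1kd cells (adjusted p = 2.86e-06) and -0.22 in Tet2kd cells (adjusted p = 0.245), in the authors' deposited table. In Tet2kd cells it passed as lower by the second deposited test (adjusted p = 0.0201) and by limma (adjusted p = 0.0293). Between Tet1kd and Tet2kd cells the log2 difference was 0.74 (SE 0.07; limma, adjusted p = 2.01e-07).

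Plod1 had 1587, 1743, 1750 and 1914 normalized counts in Tet1kd libraries, 1213, 1218, 1220 and 1196 in Tet2kd libraries, and 1146, 1111, 1204 and 1153 in parental libraries. The Tet1kd libraries again lay above all others. Its log2 change was 0.60 in Tet1kd cells (adjusted p = 6.12e-09) and 0.07 in Tet2kd cells (adjusted p = 0.814), in the authors' deposited table. Plod2, which hydroxylates lysines in collagen telopeptides, averaged 1255 ± 115 in Tet1kd, 1055 ± 80 in Tet2kd and 1440 ± 89 normalized counts in parental cells (SD, n = 4 each). It was lower in Tet2kd cells by a log2 change of -0.45 (adjusted p = 5.79e-05), while the value in Tet1kd cells was -0.20 (adjusted p = 0.113), in the authors' deposited table. P4ha2 had log2 changes of 0.33 in Tet1kd and 0.28 in Tet2kd cells, and P4ha3 of -0.47 and -0.00, in the authors' deposited table; none of these passed by the first deposited test. P4ha3 rested on 126 reads in Tet1kd, 142 in Tet2kd and 151 in parental libraries in all.

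Collagen genes were called in both directions. Of 12 tested collagen chain genes, 3 were higher and 6 lower in Tet1kd cells (median log2 change -0.34), and 2 were higher and 2 lower in Tet2kd cells, with a median of 0.13. In the authors' deposited table, Tet1kd cells had more Col4a1 (0.93), a basement membrane chain, and less of the fibrillar chains Col3a1 (-1.20) and Col5a2 (-0.89), by log2 change. Of 18 tested genes of collagen folding, crosslinking and further modification, 1 was higher and 6 lower in Tet1kd cells (median -0.05), and 1 higher and 1 lower in Tet2kd cells (median -0.05). The crosslinking enzyme gene Lox had a log2 change of -0.87 in Tet1kd and 0.59 in Tet2kd cells in the authors' deposited table, and both passed.

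Markers of feeder fibroblasts moved with the Tet1kd group. Of 20 tested markers, 16 were lower and 0 higher in Tet1kd cells, with a median log2 change of -1.18, and 5 were higher and 3 lower in Tet2kd cells, with a median of 0.00. The markers Col1a1, Col1a2 and Col3a1 are also counted with the collagen chain genes above, and Loxl1 with those of collagen crosslinking. These lists are therefore not separate results. The 20 markers summed to 4228 to 4709 normalized counts in Tet1kd libraries, 8792 to 9517 in Tet2kd libraries and 7242 to 7755 in parental libraries. None of the markers was at 0 in any group; in the authors' deposited table Dcn had a mean of 7.71 in Tet1kd and 243 in parental cells, and Mmp3 of 15.9 in Tet1kd and 169 in parental cells. The lowest means in Tet1kd cells were those of Fap (0.276, against 12.7 in parental cells) and Lum (0.414, against 18.6), in the authors' deposited table. P4ha1 and Plod1 rose in the group in which the fibroblast markers fell. The part of fibroblasts in the results on collagen enzymes was not tested. In bulk RNA, fewer cells of a type and less RNA per cell cannot be told apart.

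**Figure D3:**
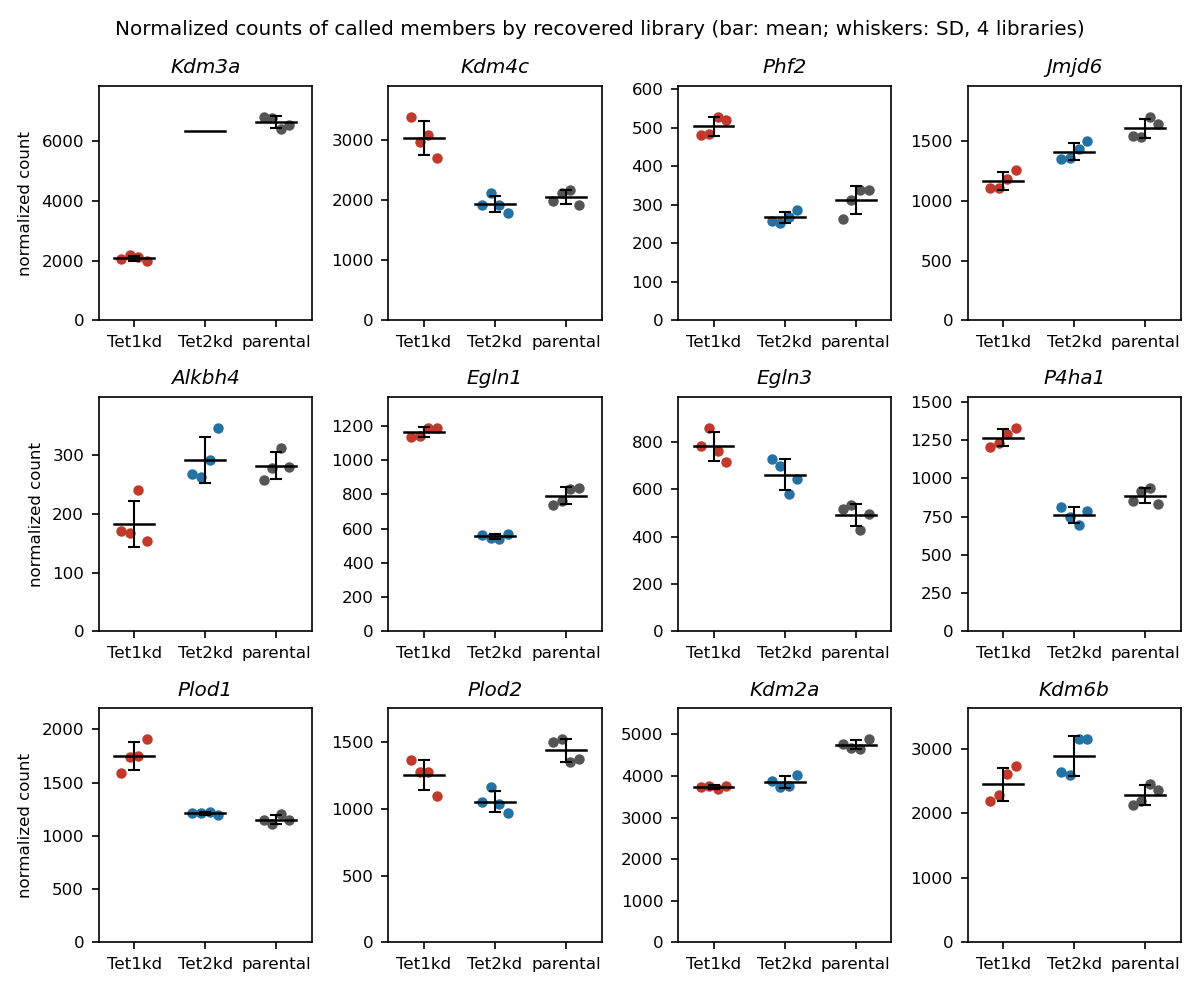
Normalized counts of 12 called members by recovered library in Tet1kd, Tet2kd and parental cells (points, libraries a to d from left to right; bar, mean; whiskers, SD over 4 libraries; linear axes from 0). For Kdm3a the Tet2kd libraries were not recovered and the mean of 6336 alone is drawn; the 3 groups of Egln1 lie in separate bands.

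Of the 14 histone demethylases and related JmjC proteins, Jmjd6 included, 4 were higher and 3 lower in Tet1kd cells (median log2 change -0.01). The 50% called compare with 30.4% of all genes and 49.6% of those with a mean of at least 100. In Tet2kd cells 1 was higher and 2 were lower (21.4% called, against 7.14% of all genes and 12.7% of those with a mean of at least 100), with a median of -0.02. The largest change of a called member in Tet1kd cells was that of Kdm3a, a demethylase of mono- and dimethylated H3 lysine 9 whose expression is also known to be induced by HIF. It had 2046, 2175, 2116 and 1970 normalized counts in Tet1kd libraries. The mean was 6336 in Tet2kd cells, where single libraries were not recovered, and parental libraries had 6811, 6753, 6395 and 6545. In the authors' deposited table the log2 change was -1.67 in Tet1kd cells (adjusted p = 1.65e-80), which left 31.3% of the parental level, and -0.06 in Tet2kd cells (adjusted p = 0.836). Its close relative Kdm3b had a log2 change of 0.08 in Tet1kd and 0.16 in Tet2kd cells, and neither passed by the first test, in the authors' deposited table; the second test called it in Tet2kd cells (adjusted p = 3.16e-05). The row that holds Jmjd1c together with 1 overlapping gene had -0.67 in Tet1kd cells (adjusted p = 1.19e-14) and -0.17 in Tet2kd cells (adjusted p = 0.201), in the authors' deposited table, where the second test called it in Tet2kd cells as well (adjusted p = 6.87e-08).

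The genes around Kdm3a on chromosome 6 were lower in Tet1kd cells as well. Within 5 Mb of it, 31 genes had a mean normalized count of at least 100. Of these, 26 were lower and 0 higher, with a median log2 change of -0.78, in the authors' deposited table. None of the 31 fell below Kdm3a itself; the lowest were Rpia (-1.49), Kcmf1 (-1.35) and Immt (-1.30), which were named after their values were seen. In Tet2kd cells 32 genes were tested around Kdm3a, of which 1 was higher and 1 lower, with a median of 0.00. Of the surroundings of all 30 members in Tet1kd cells, that of Kdm3a had the lowest median, and the highest was 0.19 around Alkbh3. Kdm5a, also on chromosome 6 but among other genes, had a log2 change of -0.08 and a median of 0.01 around it. In Tet2kd cells the medians around the members ran from -0.16 at Fto to 0.09 at Kdm4c. Around Egln1 the median was -0.05 in Tet1kd and -0.11 in Tet2kd cells, where 0 of 63 neighbours were higher and 9 lower. Gene order was taken from a GRCm38 annotation, whereas the files name the builds mm9 and NCBIM37, so distances are approximate. Whether the change of Kdm3a is its own or that of a wider stretch of the chromosome was not tested.

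**Figure D4:**
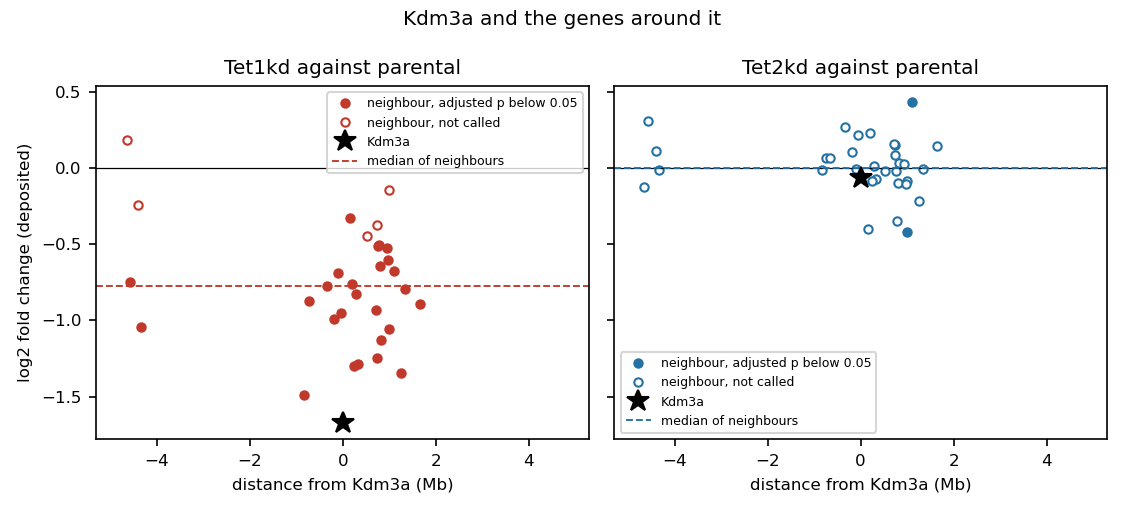
Deposited log2 change of Kdm3a (star) and of genes with a mean of at least 100 within 5 Mb of it, by distance in Mb, in Tet1kd (left) and Tet2kd cells (right); filled points passed an adjusted p of 0.05 and the dashed line is the median of the neighbours. In Tet1kd cells 26 of 31 neighbours are filled and below 0, while in Tet2kd cells the median is 0.00.

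The KDM4 enzymes demethylate H3 lysine 9 and, for KDM4A to KDM4C, H3 lysine 36. Kdm4c, known to help maintain embryonic stem cells, had 3386, 2963, 3083 and 2706 normalized counts in Tet1kd libraries, 1912, 2111, 1915 and 1782 in Tet2kd libraries, and 1986, 2119, 2166 and 1919 in parental libraries. The Tet1kd libraries lay above all others. Its log2 change was 0.57 in Tet1kd cells (adjusted p = 1.20e-09) and -0.09 in Tet2kd cells (adjusted p = 0.832), in the authors' deposited table. Kdm4b was higher in Tet1kd cells, by a log2 change of 0.49 (adjusted p = 0.00783), in the authors' deposited table. Kdm4a had -0.09 in Tet1kd and -0.14 in Tet2kd cells, and neither passed, in the authors' deposited table.

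Kdm4d was close to the limit of detection. It had 0, 4, 0 and 3 reads in Tet1kd libraries a to d, 0 reads in each Tet2kd library, and 13, 1, 6 and 3 reads in parental libraries. With a floor of 3 reads over the Tet2kd group, the parental mean of Kdm4d was 7.37 times that floor. The error of the parental mean was left out, so this ratio is not a lower bound on the change. The adjusted p was 0.0208 in Tet2kd and 0.18 in Tet1kd cells, in the authors' deposited table. In Tet1kd cells 7 reads stood against 23 in parental cells. Parental library a alone held 13 of those 23 reads.

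Phf2, a demethylase of H3 lysine 9, had 482, 483.5, 530 and 522 normalized counts in Tet1kd libraries, 259, 254.2, 269.8 and 287 in Tet2kd libraries, and 262, 312, 340.0 and 338 in parental libraries. All Tet1kd libraries exceeded all others, while Tet2kd and parental libraries overlapped. The log2 change was 0.69 in Tet1kd cells (adjusted p = 3.39e-08) and -0.23 in Tet2kd cells (adjusted p = 0.477), in the authors' deposited table. Its relative Phf8, which is X-linked and acts on H3 lysine 9 and H4 lysine 20, did not pass against parental cells, with -0.11 in Tet1kd and 0.08 in Tet2kd cells in the authors' deposited table.

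Kdm2a, a demethylase of H3 lysine 36 that binds CpG islands, averaged 3735 ± 41 normalized counts in Tet1kd, 3851 ± 137 in Tet2kd and 4749 ± 113 in parental cells (SD, n = 4 each). The libraries of both knockdowns lay below all parental libraries. The log2 change was -0.35 in Tet1kd cells (adjusted p = 0.000318) and -0.30 in Tet2kd cells (adjusted p = 0.00519), in the authors' deposited table, and the log2 difference between Tet1kd and Tet2kd cells was -0.04 (SE 0.04; limma, adjusted p = 0.391). Jmjd6, a lysyl hydroxylase of splicing factors, was lower in Tet1kd cells by -0.46 (adjusted p = 5.61e-06) and had -0.19 in Tet2kd cells (adjusted p = 0.231), by log2 change in the authors' deposited table.

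Of the 3 H3 lysine 4 demethylase genes, 1 passed in Tet1kd cells. Kdm5b rose in Tet1kd cells by a log2 change of 0.25 (adjusted p = 0.00528) and had 0.10 in Tet2kd cells (adjusted p = 0.634), in the authors' deposited table. Kdm5a had -0.08 and -0.02, and the X-linked Kdm5c 0.07 and 0.02, in Tet1kd and Tet2kd cells by log2 change in the authors' deposited table, and none passed. Kdm6b, a demethylase of H3 lysine 27, was higher in Tet2kd cells, by 0.34 (adjusted p = 0.0268), and had 0.10 in Tet1kd cells (adjusted p = 0.638), by log2 change in the authors' deposited table. Its counts in Tet2kd libraries a to d were 2638, 2597, 3158 and 3146, against 2130, 2192, 2459 and 2362 in parental libraries. The direct log2 difference of Tet1kd from Tet2kd cells was -0.24 (limma, adjusted p = 0.0273), and it lost its call without Tet1kd library a or b, or Tet2kd library c or d, with adjusted p of 0.0792 to 0.0903.

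Genes of the opposing enzymes were also called both ways, as were all genes tested in Tet1kd cells (15.2% higher, 15.3% lower). Of 25 tested histone lysine methyltransferase genes, 5 were higher and 7 lower in Tet1kd cells (median log2 change -0.04), and 1 was higher and 2 lower in Tet2kd cells (median -0.07). Ezh2, the H3 lysine 27 methyltransferase of Polycomb, fell in Tet1kd cells (-1.04), and Nsd1, an H3 lysine 36 methyltransferase, rose in Tet2kd cells (0.82), by log2 change in the authors' deposited table. A further list held 25 tested genes outside the 34, of 2-oxoglutarate oxygenases and related JmjC proteins such as Jarid2. Of these, 3 were higher and 5 lower in Tet1kd cells (median 0.02), and 2 higher and 3 lower in Tet2kd cells (median -0.05). P3h1, P3h2 and P3h3 among them are also counted with the genes of collagen modification above. Uty, the Y-linked relative of the H3 lysine 27 demethylase gene Kdm6a, fell in both knockdowns. In the authors' deposited table, its mean normalized count was 6.58 in Tet1kd against 503 in parental cells, and 8.67 in Tet2kd against 461 in parental cells, each table on its own scale. Phyh, a peroxisomal hydroxylase of phytanoyl-CoA, rose in Tet1kd cells (0.84), as did the histone demethylase gene Kdm7a (0.60), by log2 change in the authors' deposited table.

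Of the 7 ALKBH and FTO genes, 1 was higher and 1 lower in Tet1kd cells (median log2 change 0.01), and 0 passed in Tet2kd cells by DESeq, with a median of 0.07. At an unadjusted p of 0.05, 3 of the 7 passed in Tet2kd cells, and 4 passed by the second deposited test and 3 by limma, where 18.2% and 19.5% of all genes passed. Of all genes, 30.4% passed by the first test in Tet1kd and 7.14% in Tet2kd cells, and for genes whose mean reached 100 it was 49.6% and 12.7%. Alkbh4, which demethylates actin, had 171, 167, 241 and 153 normalized counts in Tet1kd libraries, 267, 262, 291 and 346 in Tet2kd libraries, and 256, 278, 312 and 279.5 in parental libraries. All Tet1kd libraries lay below all others, with library c the nearest to them. The log2 change was -0.62 in Tet1kd cells (adjusted p = 0.000155) and 0.05 in Tet2kd cells (adjusted p = 1), in the authors' deposited table. Between Tet1kd and Tet2kd cells the log2 difference was -0.69 (SE 0.14; limma, adjusted p = 0.000534). Alkbh7, a mitochondrial family member, was higher in Tet1kd cells by 0.44 (adjusted p = 0.00664) and had 0.27 in Tet2kd cells (adjusted p = 0.118), by log2 change in the authors' deposited table.

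The erasers of N6-methyladenosine, Alkbh5 and Fto, did not pass in either knockdown by the first deposited test, but Fto passed by others. Alkbh5 averaged 4888 ± 345 normalized counts in Tet1kd, 5071 ± 276 in Tet2kd and 4840 ± 182 in parental cells (SD, n = 4 each). Fto averaged 2456 ± 66, 2439 ± 76 and 2745 ± 66 in Tet1kd, Tet2kd and parental cells (SD, n = 4 each), so that every knockdown library stood below every parental one. Its log2 change was -0.16 in Tet1kd cells (adjusted p = 0.15) and -0.17 in Tet2kd cells (adjusted p = 0.322) by the first test in the authors' deposited table. By the second deposited test Fto passed as lower in Tet1kd (adjusted p = 0.00167) and Tet2kd cells (adjusted p = 0.00125), and by limma likewise (adjusted p = 0.00625 and 0.0141). Among 17 tested genes of the writers and readers of this mark, 3 were higher and 5 lower in Tet1kd cells (median -0.08), and 2 higher and 1 lower in Tet2kd cells (median -0.01). The reader gene Igf2bp2 rose in Tet1kd (1.11) and Tet2kd cells (0.25), whereas the writer gene Mettl16 fell in Tet1kd (-0.57) and Tet2kd cells (-0.25), by log2 change in the authors' deposited table. Igf2bp3, another reader gene, fell in Tet1kd (-0.66) and rose in Tet2kd cells (0.52), by log2 change in the authors' deposited table.

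The repair enzymes Alkbh2 and Alkbh3 reverse alkylation of DNA bases. Alkbh2 had log2 changes of 0.26 in Tet1kd and 0.52 in Tet2kd cells (adjusted p = 0.338 and 0.0982), in the authors' deposited table. Alkbh3 had 0.23 and 0.32 (adjusted p = 0.256 and 0.161), and the tRNA modifying enzyme gene Alkbh8 -0.25 and -0.19 (adjusted p = 0.0824 and 0.369), in Tet1kd and Tet2kd cells by log2 change in the authors' deposited table. Of 12 tested genes of alkylation repair and of partners of ALKBH8, 4 were higher and 2 lower in Tet1kd cells (median 0.20), and 1 was higher and 0 lower in Tet2kd cells (median 0.02). The ligase gene Lig3 rose in Tet1kd cells (0.49) and the direct repair gene Mgmt in Tet2kd cells (0.38), by log2 change in the authors' deposited table. The shared rows of Alkbh1, Alkbh6 and Plod3 had log2 changes of -0.16, -0.22 and -0.17 in Tet1kd and -0.10, 0.10 and -0.17 in Tet2kd cells in the authors' deposited table, and none passed by its first test. By its second test the Alkbh1 row passed in Tet1kd cells (adjusted p = 0.00271) and the Plod3 row in Tet1kd (adjusted p = 0.0146) and Tet2kd cells (adjusted p = 0.0231).

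Set directly against each other, the 2 knockdowns differed in 11 of 26 members that could be fitted, with Tet1kd cells higher in 7 and lower in 4 (limma on recovered normalized counts, adjusted p below 0.05). Of all genes fitted, 50.9% passed. With the depth pair of the library (deeper or shallower) as a term 13 members passed, and without single libraries 9 to 11. Kdm3a, Kdm3b and Kdm5b could not be fitted because not all of their libraries were recovered, and Kdm4d because its mean was under 10. Tet1kd cells were higher than Tet2kd cells in Egln1, Phf2, P4ha1, Kdm4c, Plod1, Plod2 and Egln3, and lower in Alkbh4, Jmjd6, Kdm6b and Phf8. Among the histone demethylases that could be fitted, the largest log2 differences were those of Phf2 (0.91, SE 0.09; limma, adjusted p = 6.80e-07) and Kdm4c (0.65, SE 0.07; limma, adjusted p = 1.40e-06).

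The exon tables give the use of exon bins, parts of exons counted apart, relative to the rest of the gene; bins carry numbers but no coordinates. Of 615 tested bins of the 30 members, 13 (2.11%) passed an adjusted p of 0.05 in Tet1kd cells (DEXSeq), 8 with higher and 5 with lower use, in 6 members. Of all bins, 2.56% passed. In Tet2kd cells 14 of 614 bins (2.28%) passed, 5 with higher and 9 with lower use, in 8 members, against 2.45% of all bins. Of the bins of Kdm3a, 4 passed in Tet1kd cells: use was lower in bin 23 (adjusted p = 4.93e-09) and bin 24 (adjusted p = 0.0341), and higher in bins 1 and 11 (adjusted p = 0.0132 and 0.00542), in the authors' deposited table (DEXSeq). In Tet2kd cells, where the level of Kdm3a did not pass, bin 1 had higher use (adjusted p = 0.00114) in the authors' deposited table (DEXSeq). Kdm3a lies on the minus strand, so bin 1 need not be its first exon.

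Kdm5b had 6 called bins of 38 in Tet2kd cells, of which bin 15 had the smallest p, with lower use (adjusted p = 7.15e-13), in the authors' deposited table (DEXSeq). Bin 38, the last, and bins 14 and 30 had higher use there, and bins 6 and 8 lower use. In Tet1kd cells bin 30 of Kdm5b passed, with higher use (adjusted p = 0.00528), in the authors' deposited table (DEXSeq). Kdm3b had lower use of bin 6 in Tet1kd (adjusted p = 0.00289) and in Tet2kd cells (adjusted p = 0.00157), in the authors' deposited table (DEXSeq). The 2 comparisons share the parental libraries. The HIF hydroxylases, P4ha1 and Plod1 had 0 called bins of 75 in Tet1kd and of 74 in Tet2kd cells (DEXSeq), where 2 and 4 passed an unadjusted p of 0.05; Plod2 had 1, bin 6, with lower use in Tet2kd cells (adjusted p = 0.00822), in the authors' deposited table.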

How the data were processed

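RNA was selected for poly(A) and sequenced on the SOLiD platform, per the labels' protocols. Reads were aligned with TopHat2 2.0.0 and handled with SAMtools 0.1.18 on builds mm9 and NCBIM37, and DESeq was used, per the submitters' processing notes; the sources used here name no counter or annotation. The authors deposited, per gene, group means of counts divided by size factors (a signal, never negative), their ratio as a fold change, its log2 value, and p-values of 2 tests; the first, adjusted over all genes, is the main test here. Their exon tables hold, per the file headers, a mean signal per bin, a dispersion score, a log2 ratio of exon use given as untreated over treated (directions here are turned to knockdown over parental) and DEXSeq p-values.

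Each deposited mean is a sum of whole reads times a constant of each library, and the whole reads were recovered by a lattice search. Reads per library were obtained for 21163 of 21658 genes with reads in Tet1kd, 20691 of 21368 in Tet2kd and 21972 of 22004 in parental cells, which hold 69.2%, 62.0% and 100.0% of the reads, since genes with many reads had no single answer. Parental reads recovered from 1 table alone were compared with those recovered from both tables. In the wide search they were the same for 20276 of 20276 genes (Tet1kd table) and 18021 of 18021 (Tet2kd table). That match was fixed in advance, since a single answer in 1 table leaves no other answer for both. In the narrow search, where the answers could differ, 1243 of 1244 and 2526 of 2527 were the same. True reads were not known, so the rate of wrong answers was not measured. Normalized counts of the Tet2kd table were multiplied by 1.09 to the scale of the Tet1kd table. The knockdowns were compared with limma 3.58.1 in R 4.3.3 on log2(normalized count + 0.5) for genes whose mean reached 10, all 3 groups in 1 fit, with Benjamini-Hochberg adjustment over the genes fitted; the procedure was tested on simulated data. The floor used for Kdm4d covers counting error in the Tet2kd group only.

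Gene order and exonic length came from GENCODE vM21 (GRCm38), not from the files' build as planned. The members, lists and tests were chosen with earlier results of these data known. Members past an adjusted p of 0.05 with an absolute log2 fold change of at least 0.5 were described in every library, and up to 3 genes with the smallest adjusted p were eligible for naming from each list. The deposited second test, other thresholds, filters and pseudocounts, a term for the depth pair and leaving out each library were tried as alternatives.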

Additional observations from a re-analysis of the deposited data

Results flagged for a closer look

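In 85 sets of 4 libraries of 1 group, the highest or lowest library was compared with the rest, and chance alone would set about 1 in 20 apart. In 1 set a library stood apart: parental library a had 358.1 normalized counts of Alkbh3, while the other parental libraries had 302.6 to 311.7.

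The direct comparison of Tet1kd with Tet2kd cells passed the test of the difference itself (limma, adjusted p) in 11 of 26 members fitted. Of all genes fitted, 50.9% passed the same test, so this count does not set the members apart. The log2 difference of Egln1 was 1.067, that of Phf2 0.9137 and that of P4ha1 0.7371. Alkbh4 differed by -0.685, Kdm4c by 0.6505 and Plod1 by 0.526. Smaller log2 differences were -0.2752 for Jmjd6, 0.2489 for Plod2, 0.2402 for Egln3, -0.235 for Kdm6b and -0.1898 for Phf8. Against parental cells Egln1 passed in both knockdowns with opposite signs; Phf8 passed in neither.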

How the results depend on the processing

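The number of members called in Tet1kd cells was 13 of 30 by DESeq and 18 of 30 by the second deposited test. It was 18 of 28 by limma and 24 of 28 by limma with the depth pair (deeper or shallower) as a term. In Tet2kd cells it was 6 of 30 by DESeq and 16 of 30 by the second deposited test. It was 10 of 26 there by limma and 16 of 26 by limma with the depth pair. It was 5 of 29 when only genes with a mean of at least 10 were adjusted over, which removes Kdm4d, against 12.6% of such genes. At an adjusted p of 0.01 it was 4 of 30, against 4.25% of all genes. Without single libraries, limma called 13 to 17 of 28 members in Tet1kd cells, against 51.1% to 52.4% of all genes fitted. In Tet2kd cells it called 6 to 9 of 26, against 15.3% to 17.4%. Of all genes, 39.2% and 54.9% passed by the second test and limma in Tet1kd, and 18.2% and 19.5% in Tet2kd cells. For Tet1kd against Tet2kd, 11 members became 13 with the depth pair and 9 to 11 without single libraries. Of 381 alternatives for 29 results on single members, 371 kept the call, 10 lost it and 0 turned the direction. The losses were Kdm6b in Tet2kd cells at an adjusted p of 0.01, and Kdm6b and Egln3 between the knockdowns without single libraries. The causes were not tested. Some of the alternatives that kept the call could not have lost it. Against parental cells, centring the log2 changes on the median gene and a pseudocount of 1 left the deposited adjusted p unchanged. Kdm4d has no finite log2 value in Tet2kd cells and that result was left out of these alternatives. No paired analysis was possible because the recovered libraries cannot be tied to the replicate numbers of the labels. Depth limits Kdm4d and P4ha3, and single libraries were not recovered for Kdm5b in either knockdown and for Kdm3a and Kdm3b in Tet2kd cells.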
